A study of Mus musculus with 30 samples.

Results

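The genes described here are 9 that break down branched-chain amino acids and ketone bodies: Bcat2, Bckdha, Bckdhb, Bckdk, Ppm1k, Ivd, Bdh1, Oxct1 and Acat1. They were found by symbol in a count table of 55487 genes, and all 9 were found and passed the filter on low counts in every fit. RNA was counted in 30 mouse hearts collected 8 weeks after sham surgery or transverse aortic constriction (TAC, a clip on the aorta that raises the pressure load on the heart). Cpt1a, which lets long-chain fatty acids into mitochondria, was deleted in hearts of the first cohort and supplied by a virus in the second.

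In the first cohort, mice with the genotype CPT1a floxed had sham surgery (FF_sham) or TAC (FF_TAC). Their counterparts with the genotype cardiac specific CPT1a knockout had sham surgery (KO_sham) or TAC (KO_TAC). Each of these groups had 4 hearts. The design text calls this a knockdown, and the driver that deletes the gene in the heart is not given in the sources used here. In the second cohort, C57Bl/6 mice received PBS and sham surgery (PBS_sham) or PBS and TAC (PBS_TAC), 3 hearts each. The others received AAV9.Cpt1a, a viral vector that carries Cpt1a, with sham surgery (AAV_sham) or TAC (AAV_TAC), 4 hearts each. The design text names that vector AAV9.cTNTN.Cpt1a and calls the overexpression cardiac-specific. Ages and sexes are not given in the sources used here, and the samples are labelled as hearts with no statement on pooling.

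Leucine, isoleucine and valine are first stripped of their amino group by the mitochondrial transaminase Bcat2. The resulting keto acids meet the branched-chain keto acid dehydrogenase complex, the committed step, whose E1 component is built from the alpha subunit Bckdha and the beta subunit Bckdhb. The kinase Bckdk phosphorylates E1 and switches it off, and the phosphatase Ppm1k takes the phosphate away and switches it on. Ivd, isovaleryl-CoA dehydrogenase, acts next on the leucine branch, which ends in acetoacetate and acetyl-CoA. In ketone use, Bdh1 interconverts beta-hydroxybutyrate and acetoacetate, Oxct1 (the transferase SCOT) activates acetoacetate, and Acat1 splits acetoacetyl-CoA and also serves the isoleucine branch. Hearts burn ketone bodies readily and lack a large ketone-making pathway.

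Total counts ran from 14839758 to 22070373 per library, and the smallest count of any of the 9 genes in any library was 264. Cpt1a itself, the targeted gene, had 37.8 to 52.7 CPM (counts scaled to the size of the library) in FF_sham and 11.1 to 19.6 CPM in KO_TAC. The library labelled KO_sham 2 had 46.3 CPM, unlike the 20.3 to 23.7 CPM of the other KO_sham libraries. With all KO_sham libraries, Cpt1a was not called lower than in FF_sham (log2 difference −0.68, adjusted p 0.950 in edgeR's quasi-likelihood test). By the same test it was called lower in KO_TAC than in FF_TAC (−1.07, adjusted p 0.0405). In FF_TAC it had 48.9 and 34.0 CPM in libraries 1 and 4, but 20.3 and 16.2 CPM in those labelled FF_TAC 2 and FF_TAC 3. Calls of the 9 genes in the KO_TAC comparisons and in the interaction are given with and without these 3 libraries. The mean of the 4 TAC differences, below, was fitted with each left out singly, but not with the 3 left out together. These 3 and all 4 KO_TAC libraries also had under 100 CPM of summed haemoglobin transcripts (at most 51.1 CPM, against at least 294 CPM in the other 23). Summed levels of 12 early response genes were 2289 to 6362 CPM in those 7 libraries and 250 to 363 CPM in the other floxed-cohort libraries. Every KO_TAC library was on the low side, so any term for this haemoglobin split rests on the other 3 low libraries alone. The 7 cardiomyocyte markers were found in every group, and their sum was 42345 CPM or more in all libraries except PBS_sham 3, which had 25369 CPM. PBS_sham 3 also had 1797 CPM of 4 smooth muscle markers, against 171 and 249 CPM in the other PBS_sham libraries.

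Levels between genes were compared per length, as TPM (length-scaled shares of the transcripts in a library). Oxct1 was the most abundant, with a median of 753 TPM over the 30 libraries, followed by Acat1 with 347 TPM. Ivd had 148 TPM, Bdh1 106 TPM and Bckdha 103 TPM, and these did not stand apart from each other. Ivd ranged from 79.1 to 180 TPM, Bdh1 from 11.5 to 263 TPM and Bckdha from 18.4 to 118 TPM. The mean of Bdh1 was above that of Ivd in FF_TAC (208 against 145 TPM) and KO_TAC (164 against 104 TPM), and below it in the other groups. Bcat2 had 69.6 TPM, Bckdk 60.2 TPM and Bckdhb 56.0 TPM, with ranges that overlapped. Ppm1k was the least abundant, with 27.5 TPM. So in these hearts the transcript of the kinase was present above that of the phosphatase per unit length, and the ketone-using transferase stood far above the genes of the committed step.

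**Figure D1:**
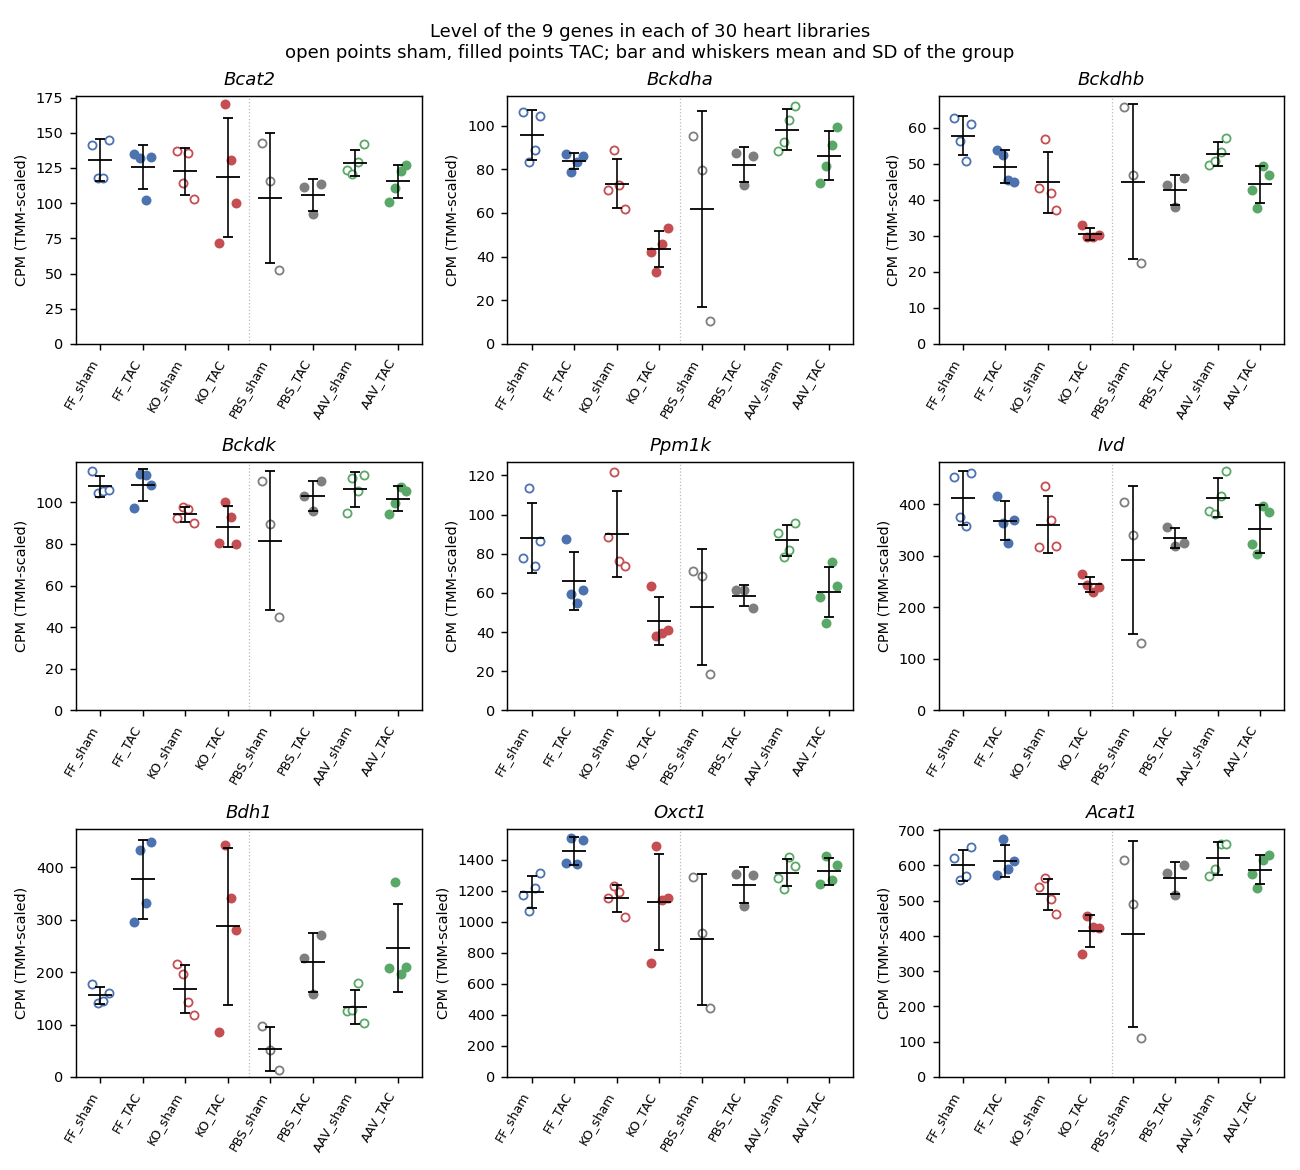
TMM-scaled CPM (vertical axis of each panel) of the 9 genes in each of the 30 libraries, by group (horizontal axis), with open points for sham, filled points for TAC and bars for the group mean and SD. In the Bdh1 panel the TAC points lie above the sham points in the FF, PBS and AAV backgrounds, and in the Bckdha, Bckdhb and Ivd panels the KO_TAC points are the lowest of the floxed cohort.

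The first question was how the genes moved with TAC. Bdh1 was the member with the largest TAC difference in FF, PBS and AAV hearts, and its mean was higher after TAC in all 4 backgrounds. Bdh1 (16:31422280-31458901 on GRCm38, plus strand) had 178, 142, 146 and 159 CPM in FF_sham 1 to 4 and 296, 433, 331 and 448 CPM in FF_TAC 1 to 4. Every FF_TAC heart lay above every FF_sham heart. In KO_sham it had 215, 197, 143 and 118 CPM, and in KO_TAC 86.0, 443, 341 and 280 CPM. Only KO_TAC 1 broke the separation there. In PBS_sham it had 96.7, 51.8 and 13.5 CPM, and in PBS_TAC 227, 158 and 271 CPM. In AAV_sham it had 126, 127, 180 and 103 CPM, and in AAV_TAC 208, 372, 197 and 209 CPM. Groups did not overlap in PBS or AAV hearts either.

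In log2 terms, Bdh1 was 1.27 higher in FF_TAC than FF_sham (SE 0.35, adjusted p 0.328) and 0.77 higher in KO_TAC than KO_sham (SE 0.34, adjusted p 0.104). It was 2.02 higher in PBS_TAC than PBS_sham (SE 0.51, adjusted p 0.142) and 0.88 higher in AAV_TAC than AAV_sham (SE 0.43, adjusted p 0.728). None of these passed a Benjamini-Hochberg adjusted p of 0.05 over all genes in edgeR's quasi-likelihood test, which is what called means here. Ranges that do not overlap with TAC higher were found for 2.74% of genes in FF, 11.1% in KO, 8.11% in PBS and 4.9% in AAV hearts. Without KO_TAC 1, the KO difference was 1.07 and passed (adjusted p 0.00199). KO_TAC 1 had 8661 CPM of 5 atrial markers, against 4.94 to 7.51 CPM in the other KO_TAC libraries, and with a covariate for the atrial marker Myl7 the KO difference of Bdh1 was 0.56 (adjusted p 0.173). Voom (1.08, adjusted p 0.00117) and the cardiomyocyte covariate (0.97, adjusted p 0.0491) called Bdh1 in KO hearts. They also called 8336 and 5198 of all 15596 genes, and the fit without KO_TAC 1 called 6441 of 15802. Without PBS_sham 3, the PBS difference was 1.56 (adjusted p 0.0688), and without PBS_sham 1 it was 2.75 and passed (adjusted p 0.0154).

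To use all hearts at once, the mean of the 4 TAC minus sham differences was tested in 1 fit of the 30 libraries, an analysis added after the separate results had been seen. Of the 16583 genes tested, 20.2% were called, and 3 of the 9 were. Bdh1 rose by 1.24 on the log2 scale (SE 0.21, adjusted p 0.000481 in edgeR), which is 2.35-fold, with an approximate 95% interval of 0.82 to 1.65 in log2. Ppm1k fell by 0.44 (SE 0.14, adjusted p 0.0253) and Bckdhb fell by 0.28 (SE 0.09, adjusted p 0.0374). The other 6 were not called, with differences from −0.19 for Ivd to 0.18 for Oxct1. Across the 9 the median was −0.06, beside −0.02 over all genes tested.

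The Bdh1 call held in each of 30 fits that left out 1 library, with differences of 1.12 to 1.42. That of Ppm1k was lost without FF_sham 2, PBS_sham 2 or PBS_TAC 3, and that of Bckdhb was lost in 17 of the 30. No fit of this mean left out FF_TAC 2, FF_TAC 3 and KO_sham 2 together. With a term for the haemoglobin split Bdh1 was 1.19 higher (adjusted p 0.0121), while Ppm1k (−0.46, adjusted p 0.112) and Bckdhb (−0.34, adjusted p 0.0889) were no longer called, with differences of about the same size. That term left 345 of all 16583 genes called, against 3352 without it. The median sum of 5 atrial markers was 52.5, 489, 655 and 218 CPM in FF_sham, KO_sham, PBS_sham and AAV_sham. After TAC it was 4.32, 7.25, 8.25 and 6.90 CPM in the same order, though single TAC libraries reached 8661 CPM. With a covariate for the atrial marker Myl7, Bdh1 was still called in this mean, and Ppm1k and Bckdhb were not. The part of atrial tissue in these differences was not tested.

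**Figure D2:**
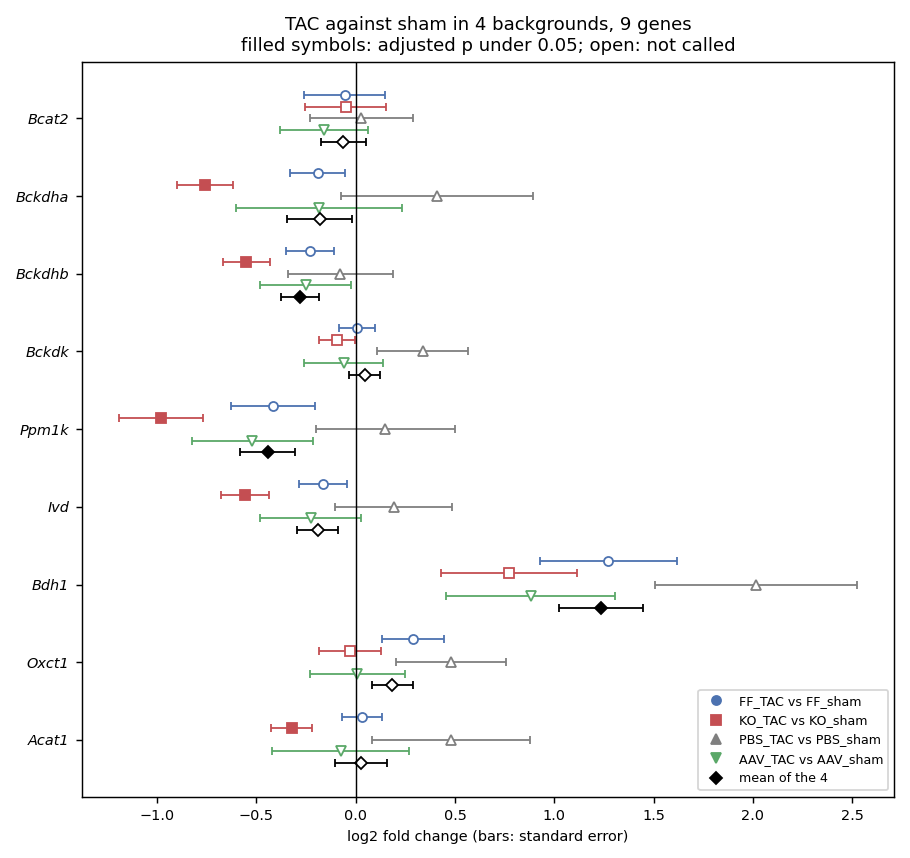
Log2 fold change of TAC against sham (horizontal axis, bars for the standard error) for the 9 genes (vertical axis) in 4 backgrounds and as the mean of the 4, with filled symbols where the adjusted p was under 0.05. Bdh1 lies to the right in every background and its mean of 1.24 is filled, while filled squares to the left mark 5 genes in KO hearts.

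Ppm1k (6:57506502-57535468, minus strand) had a lower mean after TAC in FF, KO and AAV hearts. It had 77.9, 114, 73.8 and 86.5 CPM in FF_sham and 87.7, 59.5, 55.0 and 61.6 CPM in FF_TAC, where FF_TAC 1 lay inside the sham range. It had 71.3, 68.8 and 18.7 CPM in PBS_sham and 61.6, 61.7 and 52.6 CPM in PBS_TAC, with PBS_sham 3 far below the rest. It had 90.6, 78.6, 82.2 and 95.9 CPM in AAV_sham and 57.7, 44.9, 75.9 and 63.5 CPM in AAV_TAC, which did not overlap. Bckdhb (9:83925145-84124240, plus strand) had 62.8, 56.2, 50.8 and 61.1 CPM in FF_sham and 53.8, 52.5, 45.5 and 44.9 CPM in FF_TAC. It had 65.7, 46.9 and 22.5 CPM in PBS_sham and 44.0, 38.0 and 46.0 CPM in PBS_TAC. It had 49.7, 50.6, 53.2 and 57.1 CPM in AAV_sham and 42.7, 37.7, 49.5 and 47.0 CPM in AAV_TAC, and all AAV_TAC hearts lay below all AAV_sham hearts. Without PBS_sham 3, the mean TAC difference was −0.55 for Ppm1k and −0.36 for Bckdhb, and Ivd (−0.28, adjusted p 0.00264) and Bckdha (−0.31, adjusted p 0.00343) were called too.

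The 250 bases before the RefSeq start of the 3 genes called in this mean are shown because these were the genes called in a mean taken over both cohorts. Windows were found for 8 of the 9 genes and not for Acat1, and they are from RefSeq on GRCm38.p6, 5′ to 3′ on the strand of the gene. Capitals mark the letters AGGTCA, the half-site that many nuclear receptors bind.
Bdh1, chr16:31422047-31422296, plus strand: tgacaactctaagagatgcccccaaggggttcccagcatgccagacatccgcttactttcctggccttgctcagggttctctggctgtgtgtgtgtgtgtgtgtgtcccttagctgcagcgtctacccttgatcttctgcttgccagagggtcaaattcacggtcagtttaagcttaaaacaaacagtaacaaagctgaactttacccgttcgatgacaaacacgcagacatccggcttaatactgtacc
Ppm1k, chr6:57535488-57535737, minus strand: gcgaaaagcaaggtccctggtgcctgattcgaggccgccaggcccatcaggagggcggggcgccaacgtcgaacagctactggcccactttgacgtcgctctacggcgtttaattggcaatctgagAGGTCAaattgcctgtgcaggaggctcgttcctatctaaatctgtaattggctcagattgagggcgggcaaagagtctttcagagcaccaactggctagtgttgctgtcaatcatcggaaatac
Bckdhb, chr9:83924887-83925136, plus strand: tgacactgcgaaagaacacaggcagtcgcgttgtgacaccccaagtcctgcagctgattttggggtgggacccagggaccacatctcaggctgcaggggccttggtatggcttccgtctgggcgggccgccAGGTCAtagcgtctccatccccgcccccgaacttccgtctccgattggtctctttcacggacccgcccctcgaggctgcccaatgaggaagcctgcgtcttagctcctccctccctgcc
AGGTCA was searched on both strands, a search added to those for the 3 longer motifs below, and lies from −124 to −119 in Ppm1k and from −119 to −114 in Bckdhb, counted from the first transcribed base. It was not in the Bdh1 window shown or in the windows of the other genes. Of 32851 RefSeq windows of the same length, 14.0% hold it, so 2 of 8 genes is a description only. The longer element of the estrogen-related receptors, TNAAGGTCA, which contains the half-site, is in 1.14% of windows. The E-box CACGTG is in 6.02%, and the DR1 element of the PPAR receptors in 0.0335%. None of the 8 genes held any of these 3 in its windows.

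The second question was how pressure overload acted in knockout hearts. Enzymes and a regulator of the branched-chain pathway and its end steps were lower in KO_TAC than in KO_sham: both E1 subunits, the phosphatase, Ivd and Acat1. In this comparison 5 of 9 were called lower and 0 higher, while 11.5% of the 15596 genes tested were called lower and 14.3% higher. The same 5 had ranges that did not overlap, a pattern found for 12.0% of genes in that direction. The median difference of the 9 was −0.32, beside 0.02 over all genes.

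Bckdha (7:25629946-25658981, minus strand) had 70.4, 88.8, 73.0 and 61.8 CPM in KO_sham 1 to 4 and 42.2, 32.9, 45.6 and 53.1 CPM in KO_TAC 1 to 4. It fell 1.69-fold (log2 −0.76, SE 0.14, adjusted p 0.00309). Of its exon bases, 61.7% overlap those of B3gnt8 on the opposite strand, and the strand setting of the counting is not given in the sources used here, so its level is uncertain. B3gnt8 itself had 2.50 to 5.67 CPM over all groups. Bckdhb, its partner in E1, has no such overlap and had 43.4, 56.8, 41.9 and 37.2 CPM in KO_sham against 33.1, 29.7, 29.5 and 30.1 CPM in KO_TAC. It fell 1.46-fold (log2 −0.55, SE 0.12, adjusted p 0.00645).

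The phosphatase Ppm1k had 88.4, 122, 76.4 and 73.6 CPM in KO_sham and 63.7, 38.0, 39.4 and 41.1 CPM in KO_TAC. It fell 1.97-fold (log2 −0.98, SE 0.21, adjusted p 0.00632), and KO_TAC 1 lay closest to the sham hearts. The kinase Bckdk (7:127904082-127910221, plus strand) stayed between 89.8 and 97.6 CPM in KO_sham and between 79.7 and 100 CPM in KO_TAC, with overlapping groups and no call. Ivd (2:118861954-118882909, plus strand) had 318, 435, 369 and 320 CPM in KO_sham and 266, 244, 230 and 240 CPM in KO_TAC. It fell 1.47-fold (log2 −0.56, SE 0.12, adjusted p 0.00672). Acat1 (9:53580522-53610382, minus strand) had 540, 564, 505 and 461 CPM in KO_sham and 350, 457, 425 and 423 CPM in KO_TAC. It fell 1.25-fold (log2 −0.32, SE 0.10, adjusted p 0.0326), the smallest of the 5 changes.

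Bcat2 (7:45570153-45589711, plus strand) and Oxct1 (15:4026383-4155344, plus strand) were not called. Bcat2 ranged from 103 to 137 CPM in KO_sham and from 71.6 to 171 CPM in KO_TAC. Oxct1 ranged from 1030 to 1227 CPM in KO_sham and from 732 to 1487 CPM in KO_TAC. In both genes KO_TAC 1 was the lowest and KO_TAC 2 the highest library of the group, as for Bdh1.

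The calls of Bckdha, Bckdhb, Ppm1k and Ivd held in each of the 8 fits that left out 1 library and without FF_TAC 2, FF_TAC 3 and KO_sham 2 together, while that of Acat1 was lost without the 3 (adjusted p 0.0751) and in 4 of the 8, those without KO_sham 1, 2 or 3 or KO_TAC 3 (adjusted p up to 0.0754). With a term for the haemoglobin split, Bckdha (−0.84, adjusted p 0.0336) and Bckdhb (−0.69, adjusted p 0.0301) were called. That term was estimated only through the libraries labelled KO_sham 2, FF_TAC 2 and FF_TAC 3, since all KO_TAC libraries were haemoglobin-low. It therefore cannot separate KO_TAC from the split without relying on those 3 labels. Leaving those 3 libraries out put every KO_TAC heart on the low side and every other floxed-cohort heart on the high side. Calls that held in that setting thus cannot tell KO_TAC from the split. Among haemoglobin-low hearts alone, 4 KO_TAC against the library labelled KO_sham 2, the 5 differences ran from −1.43 to −0.46. In that setting 0 of the 9 and 1 of all 16941 genes tested were called, so the calls there say little.

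Knockout and floxed hearts were then compared after TAC. All 9 genes had a lower mean in KO_TAC than in FF_TAC, with a median of −0.53 beside 0.04 over all genes. In this comparison, 5 of 9 were called lower and 0 higher, while 6.8% of genes were called lower and 7.53% higher. Ranges did not overlap for 4 of them, a pattern found for 6.76% of genes in that direction. This comparison shares the KO_TAC hearts with the one before, so the 2 are not independent.

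Bckdha had 87.1, 78.7, 83.5 and 85.9 CPM in FF_TAC, all above the 53.1 CPM of the highest KO_TAC heart, and was 1.93-fold lower in KO_TAC (log2 −0.95, SE 0.14, adjusted p 0.00117). Bckdhb, with the FF_TAC values given above, was 1.61-fold lower (log2 −0.68, SE 0.12, adjusted p 0.00255). Ivd had 416, 363, 324 and 370 CPM in FF_TAC and was lower in KO_TAC (log2 −0.59, SE 0.12, adjusted p 0.00637). Acat1 had 574, 676, 590 and 612 CPM in FF_TAC and was 1.48-fold lower (log2 −0.57, SE 0.10, adjusted p 0.00284). None of these 4 overlapped between the groups. Bckdk had 97.1, 114, 113 and 108 CPM in FF_TAC against 80.5, 100, 93.0 and 79.7 CPM in KO_TAC, which overlap, and was 1.22-fold lower (log2 −0.29, SE 0.09, adjusted p 0.0445).

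Ppm1k differed by −0.53 in the same comparison (SE 0.21, adjusted p 0.103) and Oxct1 by −0.37 (SE 0.16, adjusted p 0.126), and neither was called. Without KO_TAC 1, Ppm1k was −0.75 and passed (adjusted p 0.0164), as it did with a covariate for the atrial marker Myl7 (−0.64, adjusted p 0.0111). Those settings called 3845 of all 15802 and 3032 of all 15596 genes. The Bckdk call was lost in 6 of 8 fits that left out 1 library (FF_TAC 2, 3 or 4, or KO_TAC 1, 3 or 4). It was also lost without FF_TAC 2, FF_TAC 3 and KO_sham 2 (log2 −0.23, adjusted p 0.145), where the other 4 kept theirs. Without those 3 libraries, KO_TAC again cannot be told from the haemoglobin split. Among haemoglobin-low hearts alone, 4 KO_TAC against FF_TAC 2 and 3, the 5 differences ran from −0.92 to −0.38, and 0 of all 16941 genes tested were called.

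Other measures moved with KO_TAC too. Mitochondrially encoded transcripts made up 12.1% to 18.7% of counts in KO_TAC and 20.9% to 26.0% in the other floxed-cohort libraries. The summed level of 6 fibroblast markers was 1829 to 2362 CPM in KO_TAC, against 881 to 1263 CPM in KO_sham and 970 to 1094 CPM in FF_TAC. That of 5 endothelial markers was 452 to 650 CPM in KO_TAC and 674 to 842 CPM in KO_sham. Cardiomyocyte markers summed to 43729, 61334, 44199 and 42345 CPM in KO_TAC 1 to 4 and 48429 to 55708 CPM in KO_sham. All KO_TAC libraries but KO_TAC 2 lay below every KO_sham library. In whole-heart RNA, fewer cells of a type and less RNA per cell cannot be told apart, and the part of these measures in the results was not tested.

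The remaining comparisons of the floxed cohort called 0 of 9 genes in edgeR. In FF_TAC against FF_sham, 0.0% of all genes were called and 1 of the 9, Bdh1, had an unadjusted p under 0.05. DESeq2 called that gene, among 168 of all 15596 genes, and voom called none of the 9. In KO_sham against FF_sham, 0.0% of genes were called, and Bckdha and Bckdhb had an unadjusted p under 0.05 (log2 −0.38 and −0.37, adjusted p 0.90 for both), with 0 calls in DESeq2 and voom. The interaction of knockout and TAC asks whether TAC acted differently in knockout hearts, and 0.0449% of genes passed it. The 9 genes had a median interaction of −0.35, beside 0.03 over all genes. Bckdha (−0.57, adjusted p 0.233), Acat1 (−0.35, adjusted p 0.31) and Ivd (−0.39, adjusted p 0.35) had an unadjusted p under 0.05, and DESeq2 and voom called 0. Without FF_TAC 2, FF_TAC 3 and KO_sham 2, 825 of all 16319 genes passed the interaction, and again 0 of the 9. The TAC differences in knockout and floxed hearts were thus not shown to differ for any of the 9.

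The vector was examined in the second cohort. Cpt1a itself had 37.4 to 68.0 CPM in PBS_sham and 56.3 to 88.4 CPM in AAV_sham, which overlap (log2 0.45, SE 0.22, adjusted p 0.248). After TAC it had 40.3 to 61.6 CPM with PBS and 44.8 to 62.7 CPM with the vector (log2 0.05, SE 0.21, unadjusted p 0.82 in edgeR), so a rise in Cpt1a transcript was not called in either pair. In edgeR, 0 of 9 genes were called in each of its 5 comparisons. In PBS_TAC against PBS_sham, 0.0318% of all genes were called, Bdh1 alone of the 9 had an unadjusted p under 0.05, and it was called by DESeq2 and voom. DESeq2 called 370 and voom 252 of all 15745 genes there. In AAV_TAC against AAV_sham, 0.00635% were called and no member had an unadjusted p under 0.05, while voom called Ppm1k and DESeq2 none. In AAV_TAC against PBS_TAC, 0.0381% were called and the 9 differences ran from −0.02 to 0.18, with 0 at an unadjusted p under 0.05 and 0 calls in DESeq2 or voom. For Bdh1 the approximate 95% interval of that difference was −0.72 to 1.07, and for Bckdha −0.81 to 0.96, so differences within these bounds are not excluded. Larger differences could also go uncalled in this cohort, as Bdh1 did at 2.02 in PBS_TAC against PBS_sham. The interaction of vector and TAC passed for 0.00635% of genes and for none of the 9 in edgeR, DESeq2 or voom, with 0 at an unadjusted p under 0.05.

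In AAV_sham against PBS_sham, 0.0127% of genes were called. All 9 genes had a higher mean in AAV_sham, with a median of 0.57, and Bdh1, Ppm1k and Oxct1 had an unadjusted p under 0.05, while DESeq2 and voom called 0. Without PBS_sham 3 the median was 0.16. In that heart Acat1 had 110 CPM, against 615 and 490 CPM in PBS_sham 1 and 2, and Bckdha had 10.5 CPM, against 95.3 and 79.6 CPM. All 9 genes had their lowest PBS_sham value there.

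The balance between kinase and phosphatase was followed as the ratio of Bckdk to Ppm1k CPM within each library. It was 1.26 ± 0.25 in FF_sham and 1.71 ± 0.42 in FF_TAC, and 1.08 ± 0.21 in KO_sham and 2.05 ± 0.60 in KO_TAC (SD, n = 4 each). It was 1.75 ± 0.59 in PBS_sham and 1.77 ± 0.29 in PBS_TAC (SD, n = 3 each), and 1.23 ± 0.16 in AAV_sham and 1.73 ± 0.34 in AAV_TAC (SD, n = 4 each). The mean was thus higher after TAC in FF, KO and AAV hearts, with 1 TAC heart inside the sham range in each of the 3. By two-sided exact permutation tests of the log2 ratio, p was 0.143 in FF, 0.0571 in KO and 0.0571 in AAV hearts, where 0.0286 is the smallest these groups allow. It was 0.80 in PBS hearts, where 3 against 3 cannot go below 0.10. After adjustment over 16 tests, none passed (adjusted p 0.305 in KO and AAV).

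The ratio of the E1 subunits, Bckdha to Bckdhb, was 1.66 ± 0.12 in FF_sham, 1.72 ± 0.19 in FF_TAC, 1.65 ± 0.07 in KO_sham and 1.42 ± 0.29 in KO_TAC (SD, n = 4 each). It was 1.86 ± 0.07 in AAV_sham and 1.96 ± 0.21 in AAV_TAC (SD, n = 4 each), and 1.92 ± 0.06 in PBS_TAC (SD, n = 3). PBS_sham had 1.45, 1.70 and 0.47. The smallest exact permutation p was 0.0286, for AAV_sham against PBS_sham (two-sided, adjusted p 0.305), where all 3 PBS_sham hearts lay below all 4 AAV_sham hearts and PBS_sham 3 far below the rest. No pair of groups passed after adjustment, and the ratio means outside PBS_sham lay between 1.42 and 1.96.

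**Figure D3:**
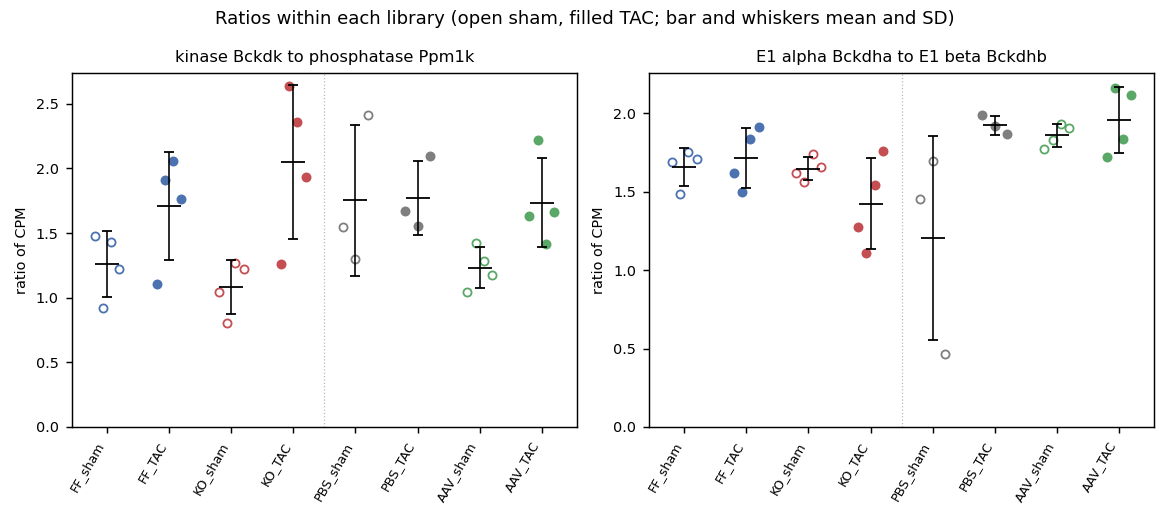
Ratio of Bckdk to Ppm1k CPM (left panel, vertical axis) and of Bckdha to Bckdhb CPM (right panel) in each library by group (horizontal axis), with open points for sham, filled points for TAC and bars for mean and SD. The kinase to phosphatase ratio has means of 1.08 in KO_sham and 2.05 in KO_TAC with 1 KO_TAC heart among the sham values, and the single low point on the right is PBS_sham 3.

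The rest of both pathways was read from lists chosen for function. Of 19 other genes of branched-chain breakdown, 8 were lower and 0 higher in KO_TAC than in KO_sham, where 11.5% of all genes were lower and 14.3% higher. Their median was −0.26, beside 0.02 over all genes. They were the E2 subunit Dbt, the valine-branch enzyme Aldh6a1, Acadsb of the isoleucine branch, both subunits of the leucine-branch carboxylase (Mccc1 and Mccc2), and Pcca, Mut and Mmab, which turn propionyl-CoA towards succinyl-CoA. Aldh6a1 ranged from 164 to 216 CPM in KO_sham and from 80.4 to 121 CPM in KO_TAC (log2 −0.89, SE 0.15, adjusted p 0.00227 in edgeR). Dbt ranged from 54.7 to 73.3 CPM in KO_sham and from 34.9 to 47.6 CPM in KO_TAC (log2 −0.69, SE 0.12, adjusted p 0.00246).

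Against FF_TAC, 11 of the 19 were lower in KO_TAC and 0 higher, where 6.8% of all genes were lower and 7.53% higher. Their median was −0.36, beside 0.04 over all genes. The lowest of these was Dbt, with a log2 difference of −0.77 (SE 0.12, adjusted p 0.00159), beside Aldh6a1 (−0.77, SE 0.15, adjusted p 0.00484), Mmab (−0.68, SE 0.12, adjusted p 0.00262) and Mut (−0.62, SE 0.13, adjusted p 0.00702). Without FF_TAC 2, FF_TAC 3 and KO_sham 2, the counts were 8 of 19 in both comparisons. Of all 16319 genes, 1748 and 1756 were then lower, and that setting cannot tell KO_TAC from the haemoglobin split. With the haemoglobin term the counts were 4 against KO_sham and 10 against FF_TAC, where 138 and 517 of all 15596 genes were lower. Among haemoglobin-low hearts alone the medians were −0.22 and −0.46 in the same order. Against FF_TAC, 0 of the 19 and 0 of all genes were called there.

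Of 9 carrier genes, 2 were higher and 1 lower in KO_TAC than in KO_sham, which is near the shares over all genes (14.3% higher and 11.5% lower), so the count is no result about carriers as a group. The 2 that rose form the LAT1 exchanger, which brings leucine into cells: Slc7a5 went from 4.66 to 5.85 CPM in KO_sham to 10.8 to 34.4 CPM in KO_TAC (log2 1.97, SE 0.40, adjusted p 0.00458 in edgeR). Slc3a2, its heavy chain, went from 36.2 to 48.8 CPM to 76.7 to 90.0 CPM (log2 1.09, SE 0.15, adjusted p 0.000705), and it was also higher than in FF_TAC (log2 0.97, SE 0.15, adjusted p 0.00126). Slc16a7, a carrier of lactate, pyruvate and ketone bodies, was lower (log2 −1.41, SE 0.48, adjusted p 0.0407), with ranges that overlap and a call that was lost in 7 of the 8 fits that left out 1 library (all but that without KO_TAC 1). With the haemoglobin term only Slc3a2 was still called among the carriers.

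Of 4 other ketone genes tested, 1 was called in KO_TAC against KO_sham and 0 against FF_TAC. In the first comparison 14.3% of all genes were higher and 11.5% lower, so the count is no result about these genes as a group. The gene called was Aacs, a cytosolic enzyme that activates acetoacetate for lipid synthesis. It was higher in KO_TAC than in KO_sham (log2 0.96, SE 0.31, adjusted p 0.0368 in edgeR), a call that was lost in 5 of the 8 fits that left out 1 library (KO_sham 1, 2 or 3, or KO_TAC 3 or 4). Klf15, a transcription factor known to drive genes of branched-chain breakdown in muscle and heart, ranged from 39.9 to 51.1 CPM in KO_sham, from 31.7 to 48.7 CPM in FF_TAC and was at most 30.7 CPM in KO_TAC. It was lower in KO_TAC than in KO_sham (log2 −0.78, SE 0.16, adjusted p 0.00425) and than in FF_TAC (−0.55, SE 0.16, adjusted p 0.0288). With the haemoglobin term it was −0.68 (adjusted p 0.0802) and −0.47, and was no longer called in either.

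**Figure D4:**
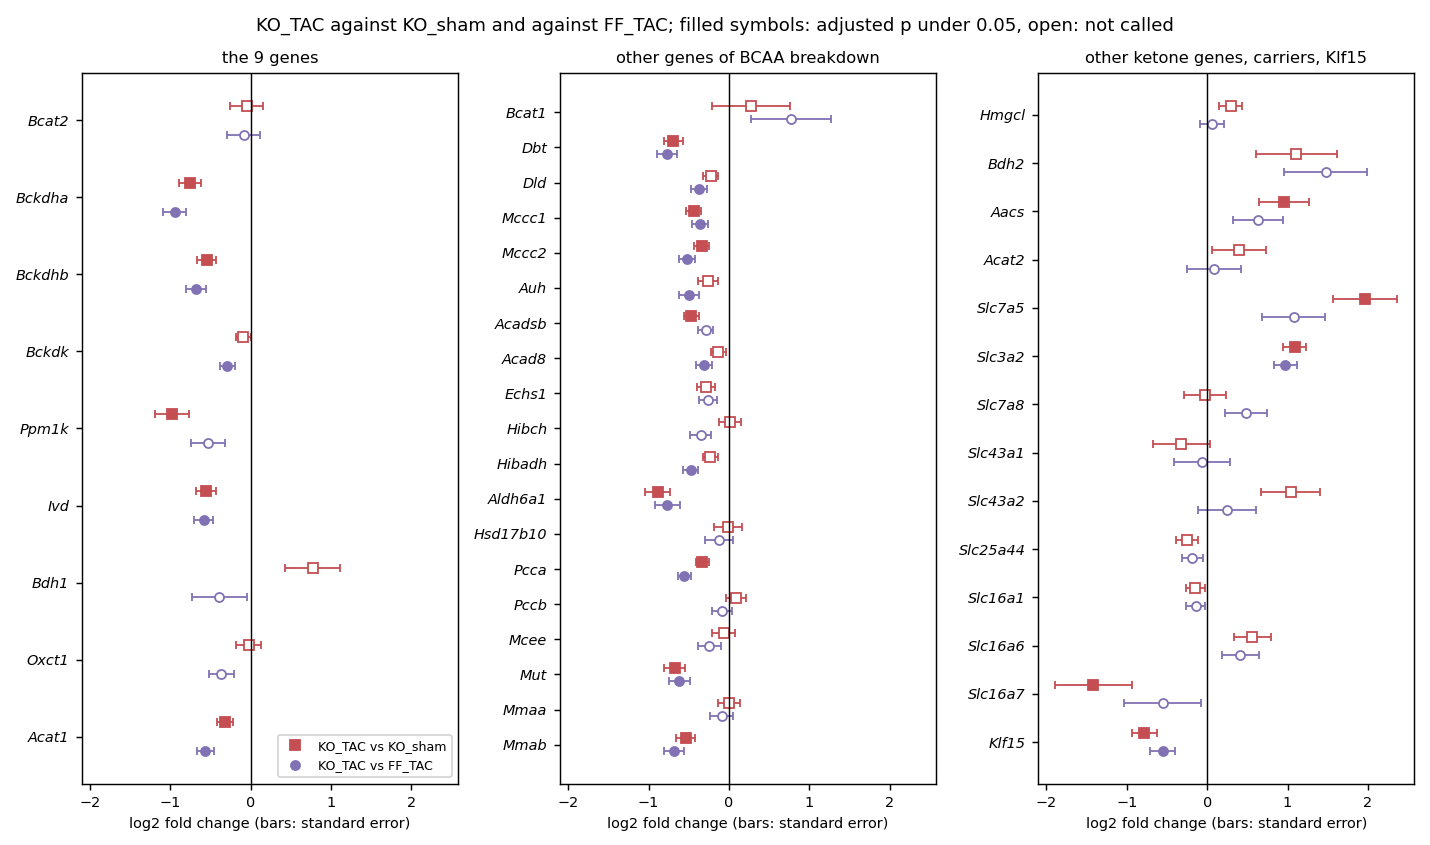
Log2 fold change (horizontal axis, bars for the standard error) of KO_TAC against KO_sham (squares) and against FF_TAC (circles) for the 9 genes, 19 other genes of branched-chain breakdown, and other ketone genes, carriers and Klf15 (vertical axes), filled where the adjusted p was under 0.05. Filled symbols of the breakdown genes all lie to the left of 0, and those of Slc7a5 and Slc3a2 to the right.

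Averaged over the 4 TAC differences, 0 of the 19 other breakdown genes were called in edgeR, with 2 at an unadjusted p under 0.05. DESeq2 called 0 of the 19, where it called 3852 of all 16583 genes. Voom called 8 of the 19 and 6464 of all genes, so its count is near the share over all genes. Without PBS_sham 3, 9 of the 19 were called lower, where 1731 of all 16810 genes were lower. The median was then −0.09, against −0.02 with that library. Among the 9 carriers, 3 rose and 2 fell, where 20.2% of all genes were called. Slc7a5 rose by 1.01 (SE 0.17, adjusted p 0.000499) and Slc43a2, a leucine carrier, by 0.78 (SE 0.16, adjusted p 0.00198). Slc3a2 rose by 0.20 in this mean (SE 0.07, adjusted p 0.0402), but not in every background. Its group mean went from 40.0 to 85.1 CPM in KO and from 37.6 to 43.3 CPM in FF hearts. It was lower after TAC in PBS hearts (53.4 to 46.0 CPM) and AAV hearts (51.1 to 42.2 CPM). In AAV hearts the ranges did not overlap. With single libraries removed, Slc3a2 stayed under an adjusted p of 0.05 in 12 of 30 fits. Slc16a7 fell by 0.87 (SE 0.22, adjusted p 0.0092) and Slc43a1 fell by 0.65 (SE 0.17, adjusted p 0.0127). The haemoglobin term left 0 of the 5 called.

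Klf15 fell by 0.49 in the same mean (SE 0.09, adjusted p 0.000599). Of the genes named from these lists, Klf15 was the one whose fall in the mean stayed called in every alternative run, the haemoglobin term (−0.45) and each left-out library included.

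Across libraries the 9 genes mostly varied together. After subtraction of each cohort's mean, Pearson's r of log2 CPM between pairs of the 9 ran from 0.10 to 0.96 over 30 libraries, with a median of 0.77 over 36 pairs. Without PBS_sham 3 the range was −0.55 to 0.93 and the median 0.56. These values describe libraries that share groups, depth and cell make-up, and are given without a test.

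Of 10546 genes, those most like Acat1 were Etfa (r 0.99, and 0.94 without PBS_sham 3) and Hibadh (0.99 and 0.93). Those most like Bckdhb were Gcdh (0.95 and 0.93) and Apbb1 (0.94 and 0.91), and Gcdh was also nearest to Ivd (0.97 and 0.96), before Acss1 (0.96 and 0.94). Ppm1k ran with Slc20a2 (0.95 and 0.93) and Nadk2 (0.94 and 0.93), and Bckdk with Uqcrc1 (0.96 and 0.87) and Sgca (0.96 and 0.88). Bckdha ran with Tmem143 and Pfkm (0.98 each, and 0.94 each without PBS_sham 3). Oxct1 ran with Coq3 (0.96 and 0.91) and Zfp106 (0.96 and 0.93), and Bcat2 with Smim20 (0.92 and 0.85) and Cox7b (0.92 and 0.87). Bdh1, the member that rose with TAC, ran with Ppm1a (0.95 and 0.92) and Nqo1 (0.95 and 0.90).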

How the data were processed

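Poly(A) RNA of 30 hearts was counted per gene. Per the submitters' processing notes, HISAT2 2.1.0, featureCounts and Subread 1.5.1 were used with GRCm38. The authors deposited raw counts, whole numbers per gene and library. The kit was strand-specific per the labels' protocols. The strand setting and annotation release of the counting are not given in the sources used here. Symbols and positions (1-based) come from GENCODE M21, which matched 55227 of 55487 rows, and rows without a symbol held 0.0034% of counts. Groups follow the genotype and treatment labels. KO_TAC samples carry both surgeries in their titles, so their treatment label decided. Nothing states that the samples are separate animals, so p-values measure the spread between these samples.

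The 9 genes, the gene and marker lists and the tests were chosen with earlier results of these data known. Each cohort was fitted with 1 mean per group by edgeR 4.0.16 (R 4.3.3; TMM, filterByExpr, quasi-likelihood F test), with Benjamini-Hochberg adjustment over 15596 or 15745 genes and calls at 0.05. The steps were tested on simulated data. CPM are TMM-scaled, and TPM use summed exon lengths. Ratios had exact permutation tests. Alternatives were DESeq2 1.42.0, voom (limma 3.58.1), RLE, no filter, a mean of at least 5 CPM, other sample sets, a replicate block, covariates for cardiomyocyte and atrial markers, a term for haemoglobin under 100 CPM, and leaving out each library. The mean TAC difference, and leaving out FF_TAC 2, FF_TAC 3 and KO_sham 2, were added after seeing the data. All 9 genes were to be named. From the lists, up to 4 called genes in each direction were named per comparison, by size of change, with at least 5 CPM in the higher group; other breakdown genes named with a list's count have no values. For each of the 9, the 2 genes with the highest r were named. One gene of the ketone list is not reported here, and it was left out of that list's counts.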

Additional observations from a re-analysis of the deposited data

Results flagged for a closer look

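In groups of 4 hearts, 66 sets of values were searched for 1 library far from the other 3, of which chance flags about 1 in 20, and 5 were found. Ppm1k had 63.7 CPM in KO_TAC 1, above the next value of 41.1 CPM. Bckdhb had 33.1 CPM in the same heart, above 30.1 CPM. Bdh1 had 372 CPM in AAV_TAC 2, above 209 CPM. Bcat2 had 102 CPM in the library labelled FF_TAC 3, below 132 CPM. Bckdk had 115 CPM in FF_sham 1, above 106 CPM.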

How the results depend on the processing

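Of the calls among the 9 genes, those lost most often were Acat1 in KO_TAC against KO_sham, Bckdk in KO_TAC against FF_TAC and Bckdhb in the mean TAC difference. DESeq2 called 1 of the 9 genes (Bdh1) in FF_TAC against FF_sham and 1 in PBS_TAC against PBS_sham, where voom and no filter on low counts also called 1. Of all genes, DESeq2 called 168 of 15596 in FF and 370 of 15745 in PBS hearts. In PBS hearts voom called 252 of 15745 and no filter 112 of 31335. In KO_TAC against KO_sham the haemoglobin term left 2 of the 5 calls, haemoglobin-low hearts alone 0 and all 30 libraries in 1 fit 3. In KO_TAC against FF_TAC haemoglobin-low hearts alone left 0 and all 30 libraries 3. In AAV_TAC against AAV_sham voom called 1 (Ppm1k) and the cardiomyocyte covariate 1 (Bdh1), where 367 and 372 of all 15745 genes were called. The mean TAC difference had 6 calls in voom, 5 with the cardiomyocyte covariate and 1 with the haemoglobin term or the atrial covariate. Of all 16583 genes, voom called 6464 there, the cardiomyocyte covariate 4783, the haemoglobin term 345 and the atrial covariate 1123. In those settings of the mean TAC difference the member counts moved with the counts over all genes. All 30 libraries in 1 fit went the other way, with fewer members but more genes called. It called 4425 of all 16583 genes in KO_TAC against KO_sham, where the main fit called 4031 of 15596. In KO_TAC against FF_TAC it called 2431, where the main fit called 2235. In KO_TAC against KO_sham the haemoglobin term left 273 of all 15596 genes called, against 4031 without it. No called change of a single gene turned sign, but medians over the 9 genes did. The causes were not tested.

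Over the fits that left out 1 library, the calls ran from 4 to 6 in both KO_TAC comparisons. Over all genes, calls against KO_sham ran from 1956 (without KO_TAC 3) to 6441 (without KO_TAC 1). Those against FF_TAC ran from 1124 (without FF_TAC 4) to 3845 (without KO_TAC 1). The member calls ran from 0 to 2 in PBS_TAC against PBS_sham (2 without PBS_sham 1, where 1796 of all 16209 genes were called). In AAV_sham against PBS_sham they ran from 0 to 3 (3 without PBS_sham 1, where 2821 of 16209 were called). In the mean TAC difference they ran from 1 to 5. There were 5 without PBS_sham 3 (3645 of 16810 genes called). There was 1 without FF_sham 2 (2662 of 16541), PBS_sham 2 (3502 of 17008) or PBS_TAC 3 (2140 of 17073). The cardiomyocyte covariate moved the median of the 9 genes from 0.34 to −0.08 in PBS_TAC against PBS_sham and from 0.57 to −0.04 in AAV_sham against PBS_sham. The median in the mean TAC difference, −0.06, ran from −0.14 to 0.01 over the left-out libraries. Same-numbered libraries did not deviate together (r −0.44 to 0.47 over 24 floxed pairs and −0.58 to 0.48 over 19 pairs of the AAV9 cohort). A replicate block left 5 calls in KO_TAC against KO_sham and 4 in KO_TAC against FF_TAC, where Bckdk had an adjusted p of 0.052. Of all 15596 genes, the block left 3889 and 2123 called. With groups of 3 or 4, small changes were not detectable.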
